A study of Mus musculus with 6 samples.

Results

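Immunoglobulin constant region genes and Jchain were examined in RNA-seq of splenic CD8+ T cells. The 10 genes were Ighm, Ighd, Ighg1, Ighg2b, Ighg2c, Ighg3, Igha, Igkc, Iglc1 and Jchain, chosen by symbol among 28773 listed genes. All 10 had a row in each of the 6 samples. The cells came from mouse spleens on day 35 and formed 2 groups of 3. In the MWA+PBS group the tumor was treated by microwave ablation (MWA), which destroys it by heat, and the mice were given PBS as the vehicle. In the MWA+2DG group the ablation was combined with 2-deoxy-D-glucose (2DG), a glucose analogue that blocks glycolysis. Tumor and ablation were thus common to both groups, and no group without ablation is compared here. The study used female mice. The labels give neither the strain nor the tumor line of these samples, and do not say whether each sample was a separate mouse or a pool, so p-values measure only the spread between these samples. The MWA+PBS replicates were numbered 1 to 3 and those of MWA+2DG 4 to 6.

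An antibody is made of heavy and light chains. The constant gene joined to the rearranged variable segment sets the class of the heavy chain, which is IgM for Ighm, IgD for Ighd, IgG for the Ighg genes and IgA for Igha. Naive B cells make IgM and IgD from a single transcription unit by alternative processing of the RNA, and class switching later joins the variable segment to an IgG, IgE or IgA gene. Light chains carry a kappa (Igkc) or a lambda (Iglc) constant region, and Jchain encodes the joining chain that links IgM and IgA units for secretion. These genes are products of B cells, and plasma cells carry very large amounts of their RNA. T cells make no antibody, and the RNA of these genes was measured here in samples labelled as CD8+ T cells. In bulk samples, fewer cells of a type and less RNA per cell cannot be told apart.

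The genes lie at 4 loci. In the GENCODE M21 annotation of GRCm38, which is not the mm9 build named in the submitters' processing notes, the heavy chain genes are on the minus strand of chromosome 12. In the direction of transcription Ighm (chr12:113418558-113422730) is followed by Ighd (chr12:113406604-113416324), Ighg3, Ighg1, Ighg2b, Ighg2c, Ighe and Igha (chr12:113254830-113260236). Igkc is on chromosome 6, the lambda genes are on chromosome 16 and Jchain is on chromosome 5. Ighg2c is the gene of the C57BL/6 reference, and BALB/c mice carry Ighg2a in its place. As the strain is not in the labels, the Ighg2c values and the IgG shares below may hold reads of either gene. Ighg2a and Iglc4 were not analysed here.

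The lambda genes are shown by sequence because the 3 of them differed in their response, Iglc2 and Iglc3 among them, which are close relatives. The lines give 120 bases of coding sequence, 5′ to 3′ on the coding (minus) strand of GRCm38, with the 30 positions at which the 3 genes are not all alike in capitals. Iglc1 is from chr16:19061952-19062071, Iglc2 from chr16:19198733-19198852 and Iglc3 from chr16:19065562-19065681.
Iglc1: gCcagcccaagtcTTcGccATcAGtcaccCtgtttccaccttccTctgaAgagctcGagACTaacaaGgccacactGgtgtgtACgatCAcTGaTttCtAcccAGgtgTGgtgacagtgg
Iglc2: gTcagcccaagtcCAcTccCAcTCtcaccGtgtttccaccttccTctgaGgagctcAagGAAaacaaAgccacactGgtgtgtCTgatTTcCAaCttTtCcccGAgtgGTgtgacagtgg
Iglc3: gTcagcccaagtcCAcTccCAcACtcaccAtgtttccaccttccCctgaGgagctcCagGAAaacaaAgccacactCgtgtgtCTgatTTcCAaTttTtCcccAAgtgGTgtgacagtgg
In this stretch Iglc2 and Iglc3 differed at 7 positions, and Iglc1 differed from them at 28 and 27. Over the whole coding sequence the identity was 96.2% for Iglc2 and Iglc3, 73.4% for Iglc1 and Iglc2, and 74.5% for Iglc1 and Iglc3. Of all 50-base windows of its transcripts, Iglc3 shared 10.7% with Iglc2. No window of 150 bases, the length of a read, was shared between any of the immunoglobulin constant genes and Jchain.

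Values are FPKM, which scale fragments by transcript length and by the library. Levels of different genes are compared here on this per-length scale, and a comparison between samples depends on the scaling of the libraries. The read depth is unknown. Differences were tested with limma on log2(FPKM + 1) in the 12444 genes whose mean FPKM reached 1, and a gene was called at a Benjamini-Hochberg adjusted p under 0.05. Fold changes are MWA+2DG minus MWA+PBS on that log2 scale, and the added 1 makes the change of a low gene look smaller. All 10 genes passed the filter and all 10 were called. Ighd and Ighg1 rose and the other 8 fell, but the rise of Ighg1 was lost when the samples were scaled to a list of 20 T cell genes. Among all tested genes 39.4% were called, 22.3% as higher and 17.1% as lower. The 10 genes had a median log2 fold change of -0.997, against 0.05 over all tested genes. By the study's criterion, a P under 0.05 and a log2 change larger than 0.25 in size, all 10 were called again, against 38.2% of tested genes. In all 10 the 3 samples of the groups did not overlap, which held for 52.1% of tested genes. No date or batch of isolation or sequencing is in the labels, so such a batch and the treatment cannot be told apart.

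**Figure D1:**
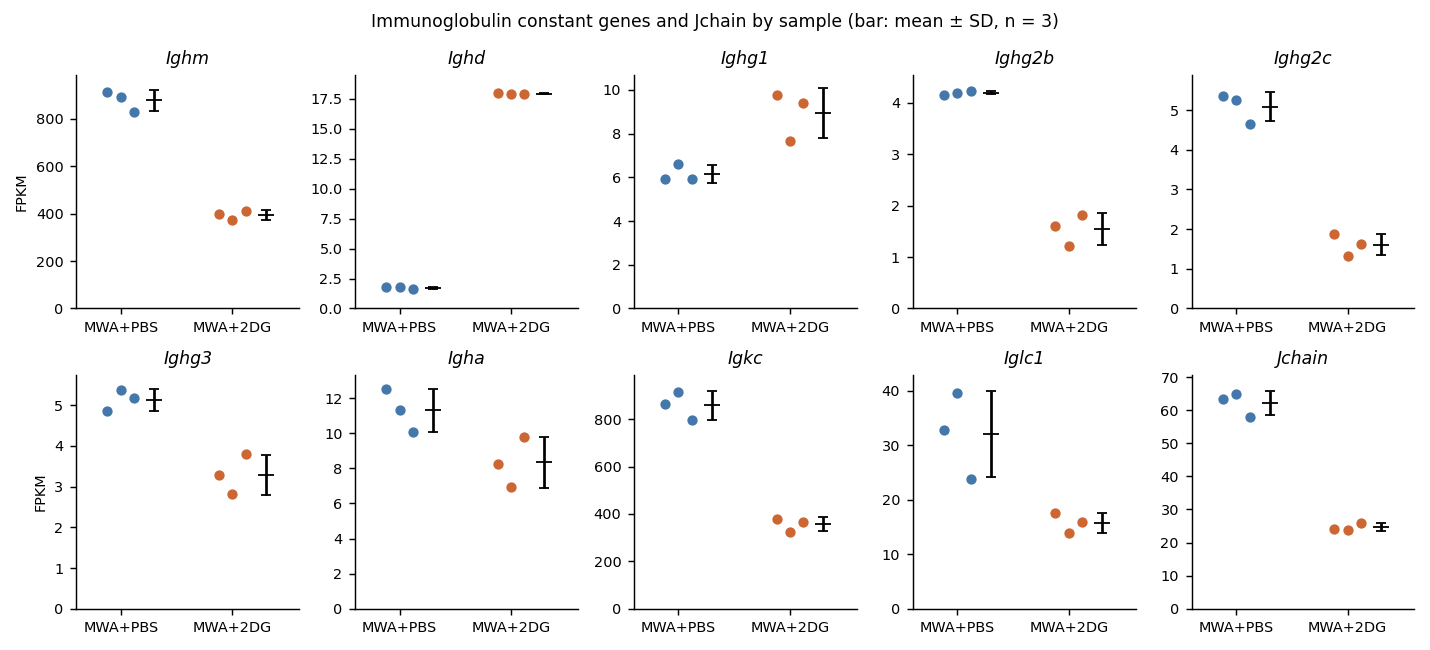
FPKM of each gene in each sample, with MWA+PBS in blue, MWA+2DG in orange, and bars for the mean ± SD (n = 3); each panel has its own linear axis from 0. Ighd and Ighg1 lay higher in all MWA+2DG samples, which for Ighg1 was lost with scaling to the T cell list, and the other 8 genes lay lower in all of them.

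The IgM heavy chain gene Ighm (ENSMUSG00000076617) was the highest of the 7 heavy chain genes in every sample. Its FPKM was 912.7, 890.3 and 828.6 after MWA+PBS and 399.1, 371.7 and 410.7 after MWA+2DG. Every MWA+2DG sample was below every MWA+PBS sample. The means were 877 ± 43.6 and 394 ± 20.04 (SD, n = 3), 2.23-fold lower after MWA+2DG. On the log2 scale this was -1.15 ± 0.07 (SE, adjusted p = 1.9e-05 by limma). Ighm ranked between 27 and 29 among all genes by FPKM after MWA+PBS and between 60 and 66 after MWA+2DG.

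Ighd (ENSMUSG00000104213), which encodes the heavy chain of IgD, changed in the opposite direction. Its FPKM was 1.76, 1.75 and 1.63 after MWA+PBS and 17.96, 17.90 and 17.93 after MWA+2DG. The values of each group lay close together and far from those of the other group. The means were 1.71 ± 0.07 and 17.9 ± 0.03 (SD, n = 3), 10.5-fold higher after MWA+2DG. In MWA+PBS Ighd was the lowest of the 10 genes, and the read depth behind its values is unknown. The log2 change, 2.80 ± 0.06, was the largest of the 10 (SE, adjusted p = 1.9e-07 by limma). Within each sample Ighd was between 0.00193 and 0.00197 of Ighm after MWA+PBS and between 0.0437 and 0.0482 after MWA+2DG. This ratio was 23.3-fold higher after MWA+2DG, a difference of 4.54 ± 0.04 (SE) in log2 ratio, with the groups apart. Ratios of FPKM without an added 1, such as this, do not depend on the scaling of a library. For each of 9 ratios the two-sided exact permutation test gave p = 0.1 (adjusted p = 0.1), the smallest that 3 samples against 3 allow.

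The IgG genes moved apart from each other. Ighg1 (ENSMUSG00000076614) encodes the heavy chain of IgG1, a class linked to help through IL-4. It was 5.94, 6.61 and 5.91 FPKM after MWA+PBS and 9.78, 7.65 and 9.39 after MWA+2DG. The lowest MWA+2DG sample was above the highest MWA+PBS sample. Ighg1 rose by 0.47 ± 0.10 in log2 (SE, adjusted p = 0.0068 by limma). With scaling to the T cell list, which moved the median of all tested genes to -0.43, its change was -0.01 (adjusted p = 0.95 by limma), so this rise depended on the scaling. Under the other alternatives its adjusted p was between 0.0011 and 0.028 by limma.

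Ighg2c (ENSMUSG00000076612) encodes the heavy chain of IgG2c, a class linked to interferon-gamma. It was 5.36, 5.24 and 4.66 FPKM after MWA+PBS and 1.88, 1.33 and 1.62 after MWA+2DG. The groups were far apart, and the mean was 3.16-fold lower after MWA+2DG, a log2 change of -1.23 ± 0.10 (SE, adjusted p = 8.9e-05 by limma). Its neighbour Ighg2b (ENSMUSG00000076613), for IgG2b, was 4.16, 4.20 and 4.22 after MWA+PBS and 1.6, 1.21 and 1.82 after MWA+2DG. The spread was narrow in MWA+PBS, with a coefficient of variation of 0.729%, and wider after MWA+2DG, at 20.02%. Ighg2b changed by -1.04 ± 0.10 in log2 (SE, adjusted p = 0.00022 by limma). Ighg2b and Ighg2c are 86.2% identical over their coding sequences and are the closest pair among the IgG genes. Of the 50-base windows of Ighg2c, 5.49% also occurred in Ighg2b.

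Ighg3 (ENSMUSG00000076615), for IgG3, fell less. It was 4.85, 5.37 and 5.18 FPKM after MWA+PBS and 3.29, 2.81 and 3.79 after MWA+2DG. The groups did not overlap, and the change was -0.52 ± 0.10 in log2 (SE, adjusted p = 0.0045 by limma), or -0.995 with the T cell scaling. Among the summed FPKM of the 4 IgG genes, Ighg1 held 29.9% ± 0.85 after MWA+PBS and 58.1% ± 1.43 after MWA+2DG (SD, n = 3). Ighg2b went from 20.4% ± 0.76 to 9.98% ± 0.86, Ighg2c from 24.7% ± 1.55 to 10.4% ± 0.83, and Ighg3 from 25.0% ± 1.03 to 21.4% ± 1.47. The 4 genes were thus at similar levels in MWA+PBS, while Ighg1 alone held more than the other 3 together after MWA+2DG. These shares were not tested.

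Igha (ENSMUSG00000095079), the IgA heavy chain gene, changed about as much as Ighg1, but downwards. It was 12.53, 11.31 and 10.08 FPKM after MWA+PBS and 8.23, 6.96 and 9.81 after MWA+2DG. The highest MWA+2DG sample lay just below the lowest MWA+PBS sample. It fell by 0.41 in log2, with an SE of 0.12 (adjusted p = 0.034 by limma), and the change was -0.88 with the T cell scaling. The call was lost under 5 alternatives. The adjusted p was 0.11 without MWA+PBS replicate 1, 0.070 without MWA+PBS replicate 2, 0.082 without MWA+2DG replicate 4, 0.085 without MWA+2DG replicate 5 and 0.101 without the filter on low values. Over all alternatives it was between 0.00017 and 0.11. The log2 change in these 5 was between -0.405 and -0.296. Ighe, the IgE heavy chain gene, lay between 0 and 0.09 FPKM in all samples and was not tested.

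The makeup of the heavy chain RNA differed between the groups. Ighm held 96.3% ± 0.04 of the summed FPKM of the 7 heavy chain genes after MWA+PBS and 90.4% ± 0.27 after MWA+2DG (SD, n = 3). Ighd held 0.188% ± 0.0021 after MWA+PBS and 4.13% ± 0.22 after MWA+2DG, and so passed the 4 IgG genes together, which went from 2.26% ± 0.10 to 3.52% ± 0.31. Igha went from 1.24% ± 0.08 to 1.91% ± 0.23. The ratio of IgG to Ighm was higher after MWA+2DG by 0.73 ± 0.09 in log2 (SE, exact permutation p = 0.1). Within the IgG sum, Ighg1 went from 0.676% to 2.05% of heavy chain FPKM and Ighg3 from 0.565% to 0.755%, while Ighg2b went from 0.461% down to 0.353% and Ighg2c from 0.558% down to 0.369%. The ratio of Igha to Ighm was higher by 0.71 ± 0.11 (SE, exact permutation p = 0.1). In both ratios every MWA+2DG sample was above every MWA+PBS sample, although the level of Igha itself was lower.

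**Figure D2:**
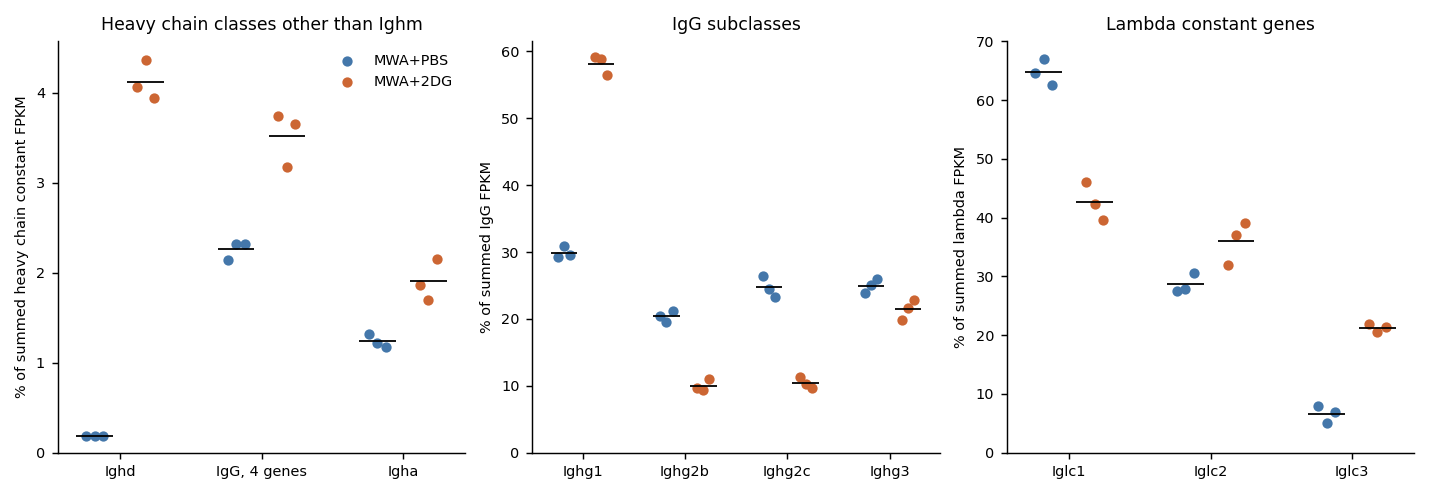
Shares of the summed FPKM within each sample for the heavy chain classes other than Ighm, the 4 IgG genes and the 3 lambda genes; points are samples, blue for MWA+PBS and orange for MWA+2DG, and lines are means. Ighd went from 0.188% to 4.13% of heavy chain FPKM, Ighg1 from 29.9% to 58.1% of IgG FPKM and Iglc3 from 6.62% to 21.3% of lambda FPKM.

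The kappa light chain gene Igkc (ENSMUSG00000076609) was at a level similar to that of Ighm. Its FPKM was 863.3, 916.4 and 795.4 after MWA+PBS and 380.5, 322.8 and 363.9 after MWA+2DG. The groups were far apart, with means of 858 ± 60.6 and 356 ± 29.7 (SD, n = 3). In log2 the change was -1.27 ± 0.09 (SE, adjusted p = 3.5e-05 by limma). Ighm and Igkc together held between 92.9% and 93.5% of the FPKM of the 10 genes after MWA+PBS and between 90.0% and 90.2% after MWA+2DG. The ratio of light to heavy chain FPKM was between 0.965 and 1.05 after MWA+PBS and between 0.868 and 0.947 after MWA+2DG. The difference in log2 ratio was -0.14 ± 0.06 (SE, exact permutation p = 0.1), small beside the changes of the chains themselves.

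The lambda genes did not move together. Iglc1 (ENSMUSG00000105906) was 32.83, 39.52 and 23.77 FPKM after MWA+PBS and 17.48, 13.90 and 15.87 after MWA+2DG. It was the most variable of the 10 genes in MWA+PBS, where its coefficient of variation was 24.7%, yet the groups did not overlap. Iglc1 changed by -0.96 ± 0.17 in log2 (SE, adjusted p = 0.0040 by limma). Iglc3 (ENSMUSG00000105547) rose, from 4.0, 3.02 and 2.61 FPKM in MWA+PBS to 8.33, 6.76 and 8.56 after MWA+2DG. The change of Iglc3 was 1.08 ± 0.14 in log2 with the groups apart (SE, adjusted p = 0.00069 by limma), or 0.61 with the T cell scaling. Iglc2 (ENSMUSG00000076937) was 13.95, 16.45 and 11.59 FPKM after MWA+PBS and 12.14, 12.18 and 15.66 after MWA+2DG.

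The Iglc2 groups overlapped, and its log2 change was -0.06, with a 95% interval from -0.38 to 0.26 (adjusted p = 0.75 by limma), or -0.54 and called with scaling to the T cell list (adjusted p = 0.0045 by limma). The close relatives Iglc2 and Iglc3 thus had different results, and no source used here says how the quantification assigned their shared stretches, so their separate values are uncertain. Within lambda FPKM, Iglc1 held 64.7% ± 2.20 after MWA+PBS and 42.7% ± 3.25 after MWA+2DG. Iglc3 held 6.62% ± 1.40 and 21.3% ± 0.68 (SD, n = 3). The sum of the 3 lambda genes was between 0.0477 and 0.0644 of Igkc after MWA+PBS and between 0.0997 and 0.110 after MWA+2DG, a difference of 0.88 ± 0.14 in log2 ratio (SE, exact permutation p = 0.1).

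Jchain (ENSMUSG00000067149) fell by about as much as Igkc. It was 63.52, 65.00 and 58.03 FPKM after MWA+PBS and 24.24, 23.91 and 25.98 after MWA+2DG. Every MWA+2DG sample was far below the lowest MWA+PBS sample. The means were 62.2 ± 3.67 and 24.7 ± 1.11 (SD, n = 3), 2.52-fold lower after MWA+2DG. In log2 it changed by -1.30 ± 0.06 (SE, adjusted p = 6.7e-06 by limma). Relative to the summed heavy chains, Jchain was between 0.0671 and 0.0703 after MWA+PBS and between 0.0549 and 0.0584 after MWA+2DG. The difference in this log2 ratio was -0.27 ± 0.03 (SE, exact permutation p = 0.1), with the ratio lower in all MWA+2DG samples. By mean log2 level of the heavy chain genes in place of their sum it was -1.14, so its size depended on how the heavy chains were combined.

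**Figure D3:**
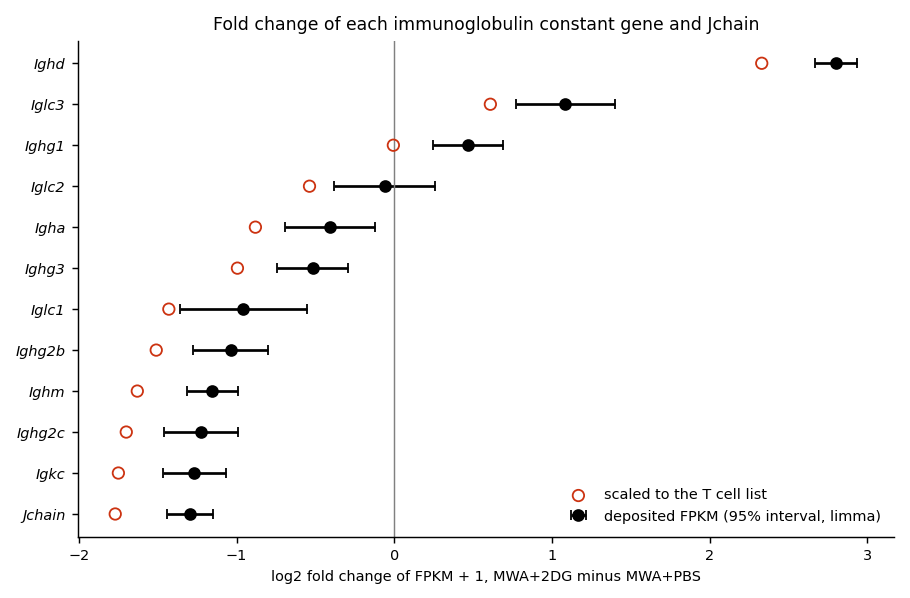
Log2 fold change of FPKM + 1, MWA+2DG minus MWA+PBS, for the 10 genes with Iglc2 and Iglc3; filled points are the deposited FPKM with the 95% interval from limma, and open circles are the values after scaling to the T cell list. Ighd and Iglc3 stayed above 0 and Ighg1 moved from 0.47 to -0.01 under that scaling.

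Within a group, the same sample was often the lowest over these genes. In MWA+2DG, replicate 5 had the lowest value in 10 of 10 genes, and in MWA+PBS, replicate 3 had the lowest in 8 of 10. The 10 genes held between 0.578% and 0.621% of all FPKM after MWA+PBS and between 0.260% and 0.295% after MWA+2DG. Immunoglobulin variable genes, which encode the antigen-binding end of the chains, went the same way as Ighm and Igkc. The 111 listed heavy chain variable genes summed to between 589 and 657 FPKM after MWA+PBS and between 205 and 266 after MWA+2DG. The 105 kappa variable genes summed to between 977 and 1144 and between 413 and 470, and the 3 lambda variable genes to between 82.4 and 111 and between 47.0 and 57.5. Heavy, kappa and lambda variable sums were all lower after MWA+2DG, also for lambda, where Iglc3 rose.

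The other genes of the B lineage were then examined. Of 18 tested genes in a list of 20 that mark B cells, 16 rose, 1 fell and 1 was not called, with a median log2 fold change of 1.5. With the T cell scaling, under which 73.7% of all tested genes were called lower, 15 rose and 2 fell. Cd79a, the signalling partner of the membrane antibody, was 1.44, 0.93 and 1.28 FPKM after MWA+PBS and 12.88, 10.82 and 13.68 after MWA+2DG, a rise of 2.60 ± 0.12 in log2 (SE, adjusted p = 5.3e-06 by limma). Fcmr, the receptor for the Fc part of IgM, had the largest rise in the list, with 0.24, 0.41 and 0.33 FPKM after MWA+PBS and 10.46, 8.40 and 9.01 after MWA+2DG. Ms4a1, which encodes CD20, was between 0.06 and 0.17 FPKM after MWA+PBS and between 3.97 and 4.25 after MWA+2DG. Ms4a1 was thus near 0 in MWA+PBS, where Ighm and Igkc were highest. Bank1, a B cell adaptor, was the gene that fell, by 0.73 in log2 or by 1.21 with the T cell scaling, and Blnk, another adaptor, was 1.39 ± 0.07 and 1.09 ± 0.04 FPKM (SD, n = 3) and not called as deposited.

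The ratio of heavy chain to B cell RNA therefore differed strongly. The summed heavy chains were 658, 994 and 672 times Cd79a after MWA+PBS and 34.3, 37.8 and 33.3 times after MWA+2DG, which is 21.7-fold lower. The difference in log2 ratio was -4.44 ± 0.20 (SE, exact permutation p = 0.1). Against the geometric mean of FPKM + 1 over the 18 tested B cell genes it was -2.50 ± 0.05 (SE, exact permutation p = 0.1). There the added 1 makes the ratio depend in part on library scaling. By mean log2 level in place of summed FPKM these differences were -2.76 and -1.59. In MWA+PBS, replicate 2 stood above the other samples in the ratio to Cd79a, and its Cd79a value was the lowest of the 3.

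**Figure D4:**
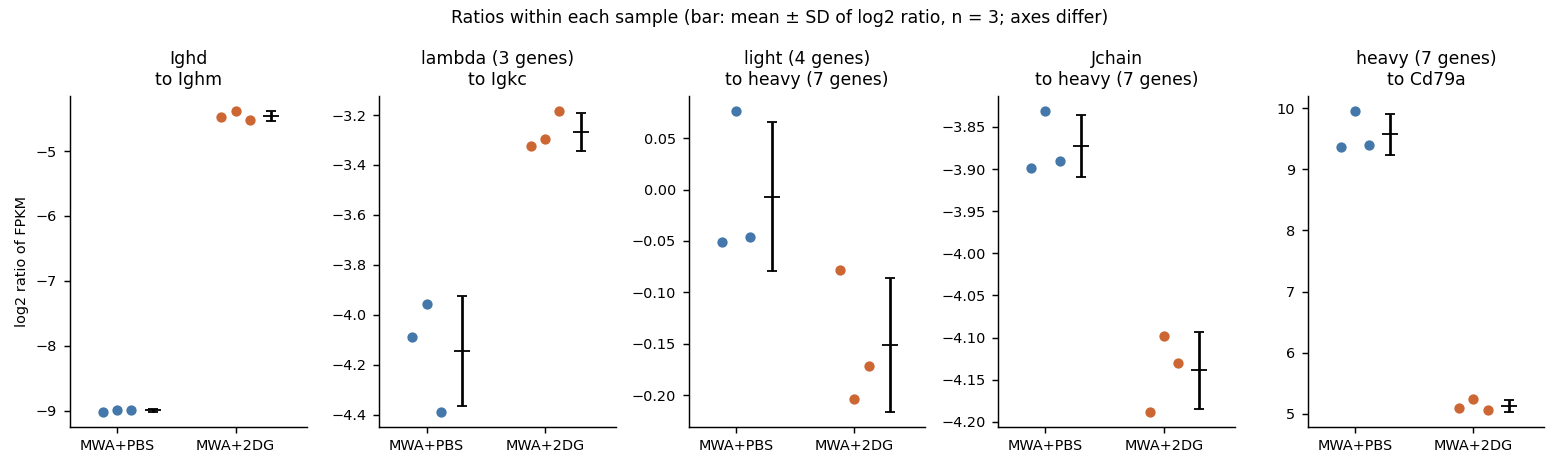
Log2 ratios of FPKM within each sample for Ighd to Ighm, lambda to Igkc, light to heavy chains, Jchain to heavy chains, and heavy chains to Cd79a; points are samples, bars are the mean ± SD (n = 3), and the axes differ and do not start at 0. The groups were apart in each ratio, by 4.54 for Ighd to Ighm and by -4.44 for heavy chains to Cd79a.

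The tested genes of plasma cells, the cells that secrete antibody, gave a divided picture. Of 12 tested genes in a list of 18, 7 rose, 3 fell and 2 were not called, against 22.3% higher and 17.1% lower among all tested genes, and the median log2 fold change was 0.28, or -0.19 after scaling to the T cell list. Xbp1, a transcription factor of the secretory program, was 17.48, 17.39 and 16.21 FPKM after MWA+PBS and 11.04, 11.25 and 12.22 after MWA+2DG, and fell by 0.53 in log2 (adjusted p = 0.00051 by limma), or by 1.0 with the T cell scaling. Txndc5, which helps proteins fold in the endoplasmic reticulum, fell by 0.37 (adjusted p = 0.0062 by limma), or by 0.85 with the T cell scaling. Slamf7 rose by 0.93 and Pou2af1, a coactivator of immunoglobulin transcription, by 0.78, or by 0.46 and 0.30 with the T cell scaling. Irf4, a transcription factor that B and T cells share, rose by 0.40 but was not called with the T cell scaling (-0.08, adjusted p = 0.35 by limma). Prdm1 and Mzb1 were not called as deposited, and were called lower with that scaling (-0.29 and -0.41). With that scaling only Slamf7 and Pou2af1 rose, 2 of the 12, and 7 fell, against 73.7% of all tested genes called lower. Many of the listed genes, among them Irf4, Prdm1, Slamf7 and Pim2, are also used by T cells.

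The defining surface genes of plasma cells were low throughout. Tnfrsf17, which encodes BCMA, was 0.76, 0.52 and 0.54 FPKM after MWA+PBS and 0.15, 0.25 and 0 after MWA+2DG, under the filter and not tested. Sdc1, which encodes CD138, lay between 0.53 and 0.82 in all samples. Derl3, Ell2, Fkbp11 and Eaf2 were under the filter as well. Their mean FPKM after MWA+PBS and MWA+2DG was 0.947 and 0.543 for Derl3 and 1.13 and 0.747 for Ell2. It was 0.243 and 0.097 for Fkbp11 and 0.123 and 0.087 for Eaf2. All the untested genes of this list, Sdc1 and Tnfrsf17 included, thus had a lower mean after MWA+2DG, at values near the floor. The summed heavy chains were set against the geometric mean of FPKM + 1 over the 12 tested plasma cell genes. They were between 94.4 and 99.9 times it after MWA+PBS and between 39.6 and 41.3 times it after MWA+2DG. The added 1 makes this ratio depend in part on library scaling. The difference in log2 ratio was -1.27 ± 0.03 (SE, exact permutation p = 0.1), and -0.36 when the mean log2 level of the genes was used in place of the summed FPKM.

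Genes of class switching were examined next. Of 15 tested genes in a list of 17, 2 rose, 2 fell and 11 were not called, against 39.4% called among all tested genes, with a median log2 fold change of 0.12, or -0.36 after scaling to the T cell list. Among the called genes were the DNA repair factors Trp53bp1 (0.21), which rose as deposited but changed by -0.27 with the T cell scaling, and Msh6 (-0.35, or -0.82 with that scaling) and Apex1 (-0.33, or -0.81), which fell. With that scaling 0 of the 15 rose and 13 fell, and 73.7% of all tested genes were called lower. They were named after their values were seen, and they act in DNA repair in other cells as well.

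Receptors that bind the constant regions mostly fell. Of 9 tested genes, 6 fell, 2 rose and 1 was not called, with a median log2 fold change of -1.30, against 17.1% lower and 22.3% higher among all tested genes. All 14 macrophage markers fell beside them, with a median of -2.55, and their part in the receptor values was not tested. Fcer1g, the signalling chain shared by several Fc receptors, was 32.06, 28.81 and 28.66 FPKM after MWA+PBS and 9.89, 7.59 and 7.10 after MWA+2DG, which is -1.76 ± 0.11 in log2 (SE, adjusted p = 2.8e-05 by limma). The IgG receptor Fcgr4 fell by 1.45, and the inhibitory IgG receptor Fcgr2b fell by 0.40 (adjusted p = 0.033 by limma), or by 0.88 with the T cell scaling. Trim21, a receptor for antibody inside cells, rose by 0.64, or by 0.17 with the T cell scaling, and Fcrl1, a receptor-like gene of B cells, rose by 0.48 and was 0.01 and not called with the T cell scaling. Pigr, which carries polymeric IgA and IgM across epithelia, was 0.20, 2.30 and 0.01 FPKM after MWA+PBS and 2.29, 2.27 and 2.47 after MWA+2DG, with overlapping groups (adjusted p = 0.068 by limma).

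**Figure D5:**
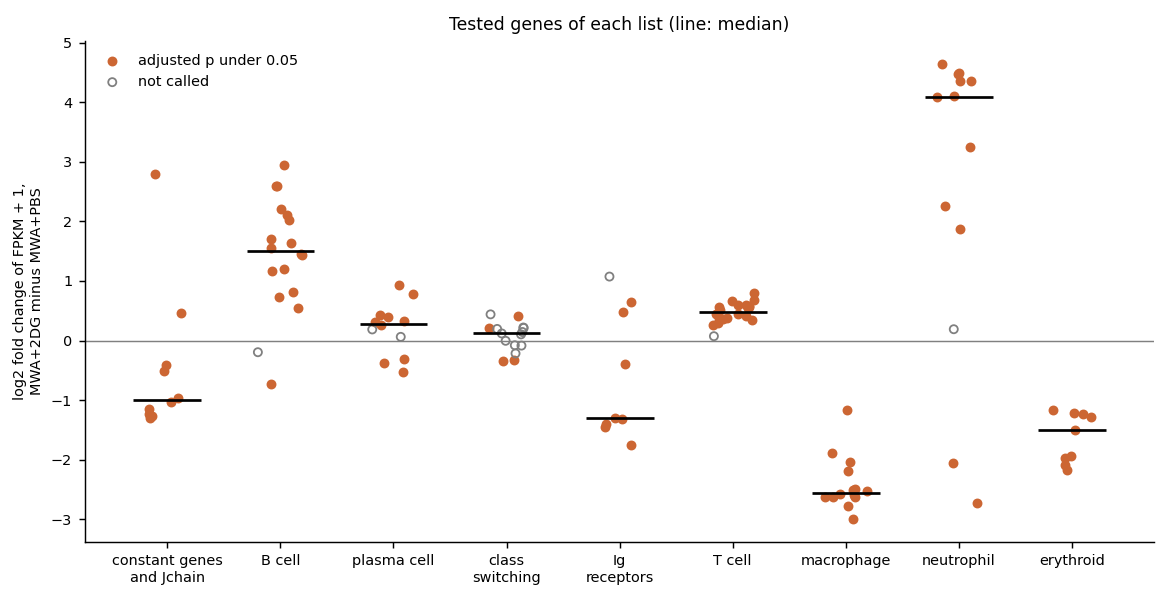
Log2 fold change of FPKM + 1 for the tested genes of each list, with filled points for genes called at an adjusted p under 0.05, open points for those not called, and a line at the median. The constant genes and Jchain had a median of -0.997, between the B cell list at 1.5 and the macrophage list at -2.55.

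Markers of other cells moved with the groups as well. The T cell list was high in all samples, with Cd8a at 231.5 ± 6.96 FPKM after MWA+PBS and 366.4 ± 9.47 after MWA+2DG (SD, n = 3) and 19 of 20 tested genes higher. Its summed level was between 2292 and 2451 FPKM after MWA+PBS and between 3254 and 3508 after MWA+2DG. All 14 macrophage genes fell, and their sum went from between 890 and 958 to between 129 and 139. Of 13 neutrophil genes 10 rose and 2 fell, against 22.3% higher and 17.1% lower among all tested genes. Their sum went from between 337 and 366 to between 1621 and 1802. The 2 that fell were Mpo, from a mean of 226 to 33.4 FPKM, and Elane, from 47.2 to 10.7. The sum thus mixed these falls with rises such as that of Ngp, from 26.8 to 614. All 9 tested erythroid genes fell, and their sum went from between 294 and 350 to between 67.2 and 85.3. The B cell sum was between 33.1 and 35.9 after MWA+PBS and between 105.5 and 114 after MWA+2DG. The part of these shifts in the immunoglobulin values was not tested.

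The genes whose pattern was most like the mean of the 10 (z-scored, Pearson's r on log2(FPKM + 1) over 6 samples) were Il1b, Cd200r1, Sec61a1, Ly6e and Irak4. Il1b, which encodes interleukin-1 beta, was nearest with r = 0.999. Sec61a1, part of the channel through which secreted proteins enter the endoplasmic reticulum, was between 22.1 and 22.6 FPKM after MWA+PBS and between 19.6 and 20.5 after MWA+2DG. The mean combined 8 falling genes with 2 rising ones, so it need not follow any single gene of the 10. Irak4 changed by -0.07 in log2 and was not called (adjusted p = 0.31 by limma). The 6 samples formed 2 separate groups, 18 genes had r above 0.99, and these values are given as a description. For single genes, the nearest patterns were Hsp90ab1 for Ighm, the neutrophil granule gene Ltf for Ighd and the carbonic anhydrase gene Car2 for Jchain, chosen after their values were seen. These were among 259, 184 and 270 genes with r above 0.99 for Ighm, Ighd and Jchain.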

How the data were processed

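Libraries of poly(A) RNA kept the strand, carried molecular identifiers and were read in pairs of 150 bases. The submitters' processing notes name cutadapt 1.9, HISAT2 2.0.4, UMI-tools and StringTie 1.3.4d with build mm9, and the study's methods name fastp and ballgown. The annotation and any use of strand or identifiers in the quantification are not stated there. The deposited FPKM values were computed by the authors and hold no counts, so depth and counting error are unknown. FPKM is relative to each library, so a large transcript lowers the others.

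Symbols came from the GENCODE M21 table (28689 of 28773 IDs), and sequences from its transcripts. Genes with a mean FPKM of at least 1 were tested with limma 3.58.1 (lmFit, eBayes with a trend) in R 4.3.3 on log2(FPKM + 1), two-sided and without covariates. The fit was first tested on simulated data. Ratios were tested by exact permutation in SciPy 1.17.1. The genes and lists were chosen with earlier results of these data known. Named were the 10 genes, other listed constant genes, defining markers, up to 2 extremes at each end of a list and the 5 nearest patterns. Some genes of this rule are not reported here. Alternatives covered pseudocount, filter, scaling, weights, trend, threshold and leaving out each sample.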

Additional observations from a re-analysis of the deposited data

How the results depend on the processing

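The direction of 9 of the 10 genes held under every alternative in which they were tested, and Ighg1 turned to -0.00614 when scaled to the T cell list. That scaling moved the median of all tested genes to -0.43, called 9566 genes against 4907, and left 4.14% of the calls as higher against 56.5%. With it the median turned to -0.191 for the plasma cell list and to -0.356 for the class switching list, and Iglc2 was called lower (-0.54, limma adjusted p = 0.0045, against 0.32 to 0.99 under the other alternatives). With a mean FPKM of at least 5, fewer genes were tested (7313) and 2951 were called. Of the 10 genes between 9 and 10 were called under the other settings, and 7 of 7 tested at that filter. Without 1 sample in turn, between 3669 and 5152 genes were called. Igha lost its call under 5 settings, with log2 fold changes between -0.405 and -0.296, and without 1 sample in turn the Iglc2 value lay between -0.182 and 0.0534, above 0 without MWA+PBS replicate 2. The 9 ratios kept their direction under all alternatives. By mean log2 level in place of summed FPKM, the ratio of Jchain to heavy chains was -1.14, and those of heavy chains to Cd79a, the B cell list and the plasma cell list were -2.76, -1.59 and -0.357. No paired analysis was possible because the labels give the groups no shared replicate numbers. The read depth is unknown, so the counting error of genes at a few FPKM, such as Ighd in MWA+PBS and Ighg2b and Ighg2c in MWA+2DG, could not be given.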

Other observations

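Further genes of the B lineage were looked up after the values above were seen. Zfp318, a factor needed for Ighd messenger RNA in B cells, was 4.03, 4.10 and 3.83 FPKM after MWA+PBS and 6.48, 6.66 and 6.24 after MWA+2DG, which is 0.58 ± 0.06 in log2 (SE, adjusted p = 0.00033 by limma). With scaling to the T cell list it was 0.105 and not called (adjusted p = 0.195 by limma). T cells express Zfp318 as well. Dntt, the enzyme that adds bases when antigen receptor genes are joined, was 4.08, 4.46 and 4.41 FPKM after MWA+PBS and 0.85, 0.55 and 0.62 after MWA+2DG, which is -1.67 ± 0.10 in log2 (SE, adjusted p = 1.6e-05 by limma). The surrogate light chain genes Vpreb1 and Igll1 and the recombinase genes Rag1 and Rag2, which mark developing B cells, were at most 0.23 FPKM in every sample and were not tested. The class II gene H2-Aa, which B cells express, rose by 0.69 in log2 (limma adjusted p = 0.0011), or by 0.22 with that scaling, while Cd74, the invariant chain, was 76.1 ± 9.33 and 71.6 ± 4.15 FPKM (SD, n = 3) and not called, but called lower with that scaling (-0.56). Mki67, a marker of dividing cells, fell by 0.81 (limma adjusted p = 0.00013), or by 1.29 with that scaling.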
